A study of Mus musculus with 8 samples.

Results

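Smad4 binding at the clustered Hox genes was examined in mouse CD4+ T cells by chromatin immunoprecipitation and sequencing (ChIP-seq). Protein-coding genes were taken by name, as Hox followed by a, b, c or d and a number, from the RefSeq gene table of GRCm38.p6, the assembly also called mm10. This gave 39 of the 21775 protein-coding genes used. Hoxa (chromosome 6) had 11 genes, Hoxb (chromosome 11) 10, Hoxc (chromosome 15) 9 and Hoxd (chromosome 2) 9. The gene body and 10 kb on both sides made up the territory of a gene, and a peak that lay in several territories was counted once per cluster. The 39 territories merged into 5 stretches of 517 kb in all, since Hoxb13 stood apart from the other Hoxb genes. No other protein-coding gene of the table lay inside a cluster, in keeping with the label of the group.

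The wild-type (WT) libraries, 2 in number, came from C57BL/6 mice. The 2 knockout (KO) libraries came from CD4cre;Smad4fl/fl mice on the same background, in which a Cre recombinase driven by Cd4 regulatory sequence deletes floxed Smad4 in T cells. All cells came from spleen and lymph nodes, were activated, and were treated for 12 h with interleukin 6 plus a TGF-β receptor inhibitor, so no group lacked the inhibitor. Ages are not given in the labels. WT samples were female, KO replicate 1 pooled both sexes and KO replicate 2 was male, so sex and genotype cannot be told apart. Separate animals are not named for the replicates, and a p-value therefore measures only the spread between these samples. Each library had 1 deposited list of peak positions without height, score or depth, with 27120 peaks for WT replicate 1, 19792 for WT replicate 2, 564 for KO replicate 1 and 424 for KO replicate 2. Whether the gap between these lists follows read depth was not tested.

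Hox genes encode homeodomain transcription factors that give cells their position along the body axis. Their order on the chromosome mirrors the order in which they are used, from paralogue group 1 at the anterior end to group 13 at the posterior end. Outside their domains of use the clusters are classic targets of Polycomb repression, while trithorax proteins such as MLL keep them active. In blood, Hoxa9, Hoxa10 and Hoxb4 are best known from stem and progenitor cells and are turned down as cells mature. Smad4 is the shared partner of receptor-activated SMAD proteins, and SMAD complexes recognise short GC-rich or CAGAC-type sequence.

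WT replicate 1 had 8 Smad4 peaks over the Hox territories, against 8.64 at its density over all coding territories and 5.27 at that over the annotated span. WT replicate 2 had 4, against 6.45 and 3.85. No Hox promoter window met a peak. Promoter windows of RefSeq (250 bases before to 50 after a start, GRCm38.p6) were at hand for 22 members with 24 windows. Those nearest to a WT peak belonged to Hoxa3, Hoxa6, Hoxa7 and Hoxd3, and their 250 bases before the start are shown, 5′ to 3′, because they are the Hox windows closest to a peak of either WT list. The stretch upstream of a RefSeq start of Lnpk, the coding gene second from Hoxd on the lower side, is shown as a contrast. A region bound in both WT libraries covers all of it. This start lies inside the body of Lnpk (74514836 to 74579458), while the Hox stretches shown adjoin the outer end of their genes. Capitals mark GGCGC or GGCCG on either strand, 5-base sequences of the GC-rich SMAD type. The stretches are chr6:52213068-52213317 (Hoxa3, minus strand), chr6:52208673-52208922 (Hoxa6, minus), chr6:52218574-52218823 (Hoxa7, minus), chr2:74711743-74711992 (Hoxd3, plus) and chr2:74578949-74579198 (Lnpk, minus).
Hoxa3: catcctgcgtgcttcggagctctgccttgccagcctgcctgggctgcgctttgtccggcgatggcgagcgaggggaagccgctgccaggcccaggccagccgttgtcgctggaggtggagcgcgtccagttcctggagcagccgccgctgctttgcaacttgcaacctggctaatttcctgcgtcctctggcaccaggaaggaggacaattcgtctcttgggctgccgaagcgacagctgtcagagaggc
Hoxa6: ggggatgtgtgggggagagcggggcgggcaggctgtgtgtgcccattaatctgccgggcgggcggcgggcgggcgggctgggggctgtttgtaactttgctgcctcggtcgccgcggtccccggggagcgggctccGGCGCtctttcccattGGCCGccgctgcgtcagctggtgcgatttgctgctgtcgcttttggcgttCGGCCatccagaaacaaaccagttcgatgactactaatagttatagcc
Hoxa7: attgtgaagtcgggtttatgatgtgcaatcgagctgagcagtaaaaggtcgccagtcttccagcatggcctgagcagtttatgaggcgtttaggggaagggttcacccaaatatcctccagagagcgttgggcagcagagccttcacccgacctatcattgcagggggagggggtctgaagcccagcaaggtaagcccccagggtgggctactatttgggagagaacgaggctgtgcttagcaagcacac
Hoxd3: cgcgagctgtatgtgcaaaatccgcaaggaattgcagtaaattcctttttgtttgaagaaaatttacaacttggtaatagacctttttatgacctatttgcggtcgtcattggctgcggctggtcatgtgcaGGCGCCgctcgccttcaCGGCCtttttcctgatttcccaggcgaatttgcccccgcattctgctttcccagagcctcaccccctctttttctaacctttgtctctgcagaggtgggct
Lnpk: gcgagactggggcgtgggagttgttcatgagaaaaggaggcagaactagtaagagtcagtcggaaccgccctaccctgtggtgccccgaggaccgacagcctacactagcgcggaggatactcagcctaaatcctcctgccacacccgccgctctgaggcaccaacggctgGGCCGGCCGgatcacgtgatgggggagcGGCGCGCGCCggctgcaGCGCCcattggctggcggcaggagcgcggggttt

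The distance from the window to the nearest WT peak was 1.15 kb for Hoxa3, 2.63 kb for Hoxa6, 2.69 kb for Hoxa7 and 3.78 kb for Hoxd3. The peak nearest to Hoxa7 belonged to a region of both WT libraries, that nearest to Hoxa3 and Hoxa6 was in WT replicate 1 only, and that nearest to Hoxd3 in WT replicate 2 only. Hoxa6 and Hoxd3 each held 3 matches to the marked sequences in the stretch shown, Lnpk held 6, and Hoxa3 and Hoxa7 held 0. Bound and unbound stretches thus both held these letters, and a match is not a site. Matches to GGCGC occurred in 15 of the 24 Hox windows, against 46.7% of all coding windows, and to GGCCG in 13, against 43.9%. CAGACA was found in 4 Hox windows (Hoxa2, Hoxa10, Hoxb4 and Hoxd11; 18.9% of all coding windows) and the palindrome GTCTAGAC in 0 (0.226%). The AP-1 sequence TGANTCA was in 1, that of Hoxd11, against 6.99% of all, while TGTGGTT (4.71%) and CCGGAAGT (5.15%), letters typical of RUNX and ETS factors, were in 0. All motifs were read on both strands, and GGCGC and GGCCG matches may overlap each other.

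A WT-only region is a stretch with a peak of both WT lists that meet by at least 1 bp and with no peak of either KO list. Counts were set side by side for the Hox genes, by gene, by length and by promoter. By gene, 7 of 39 members (17.9%) had such a region in reach, against 44.3% of all protein-coding genes. They were Hoxa3, Hoxa4, Hoxa5, Hoxa7, Hoxa9, Hoxa10 and Hoxd3. These 7 genes rested on 3 distinct regions, because Hox genes are packed so closely that 1 region reaches several territories. In the gene body alone 2 members, Hoxa3 and Hoxa4, had a WT-only region, against 34.8% of all coding genes. At Hoxa4 only the peak of WT replicate 1 overlapped the body. The centre of one lay within 1 kb of a gene end for 1 member, against 27.8%, and one came within 1 kb of a RefSeq start for 0 of the 22 members with a promoter window, against 30.3%. In KO libraries 0 of 39 members had a peak, where 1.87% of all coding genes had one in KO replicate 1, 1.16% in KO replicate 2 and 2.42% in either. Without WT replicate 2 the regions rest on 1 list, and 15 members and 8 regions were then counted.

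**Figure D1:**
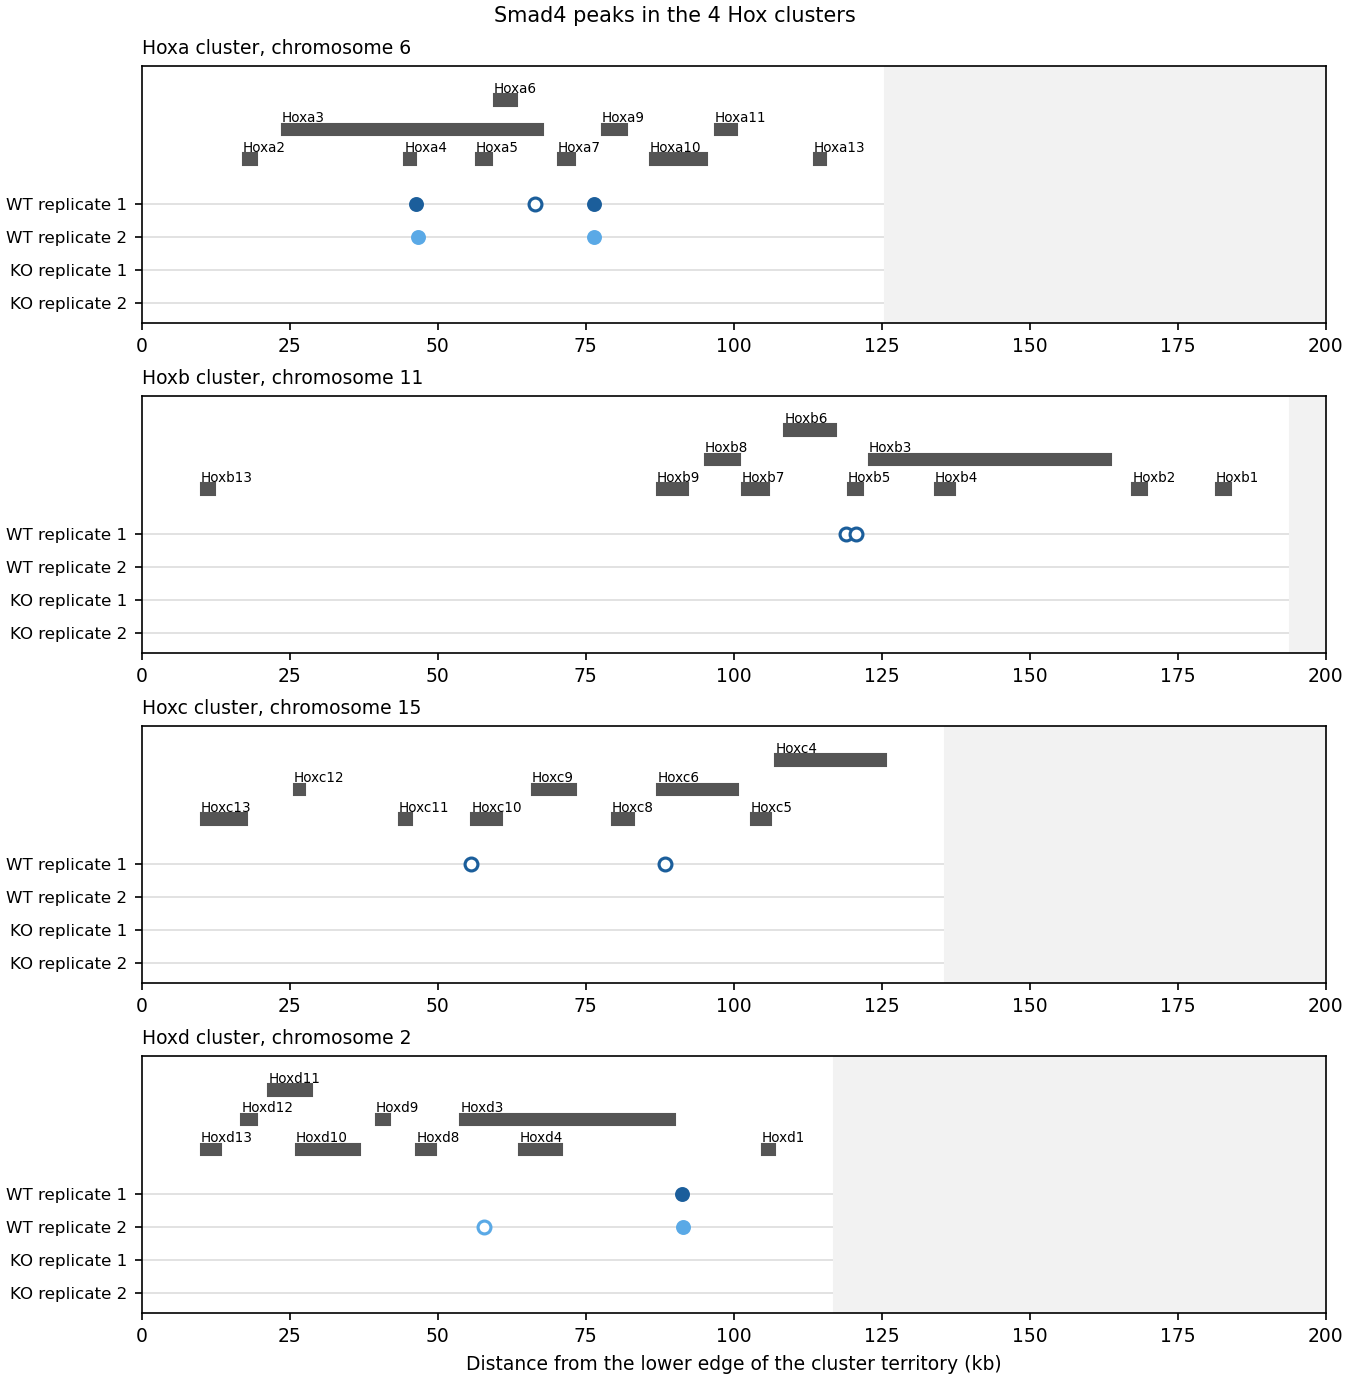
Map of the 4 Hox clusters, with the bodies of the genes reported by name as grey bars and peaks as circles at their centres, 1 row per library, against distance in kb from the lower edge of the cluster's territory (circles are not to the scale of peak width; the shaded part lies beyond the territories). Filled circles are peaks of the 3 regions found in both WT libraries, open circles are peaks of 1 WT library, and both KO rows are empty.

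The first region lay at Hoxa4, a central-group gene, at chr6:52191494-52192257 (764 bp). WT replicate 1 had a peak of 500 bp there and WT replicate 2 one of 504 bp, sharing 240 bp, and neither KO library had a peak. It overlapped the end of Hoxa4 at the higher coordinate (52191703). Only the peak of WT replicate 1 did so, and that of WT replicate 2 began 51 bp beyond this end. Such an end is the start side of a minus-strand gene, and every Hoxa gene with a promoter window lies on the minus strand. The region also lay inside the long RefSeq model of Hoxa3 (52169059 to 52213067), which spans Hoxa4, Hoxa5 and Hoxa6, and 9.50 kb from Hoxa5. The peaks met by less than 50% of either, 48.0% of the first and 47.6% of the second, with centres 262 bp apart, so the shared bases are only the middle of the region.

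The second region lay between Hoxa7 and Hoxa9, at chr6:52221516-52221949 (434 bp), outside every coding gene. Its peaks were 434 bp in WT replicate 1 and 242 bp in WT replicate 2, the smaller lying wholly inside the larger. Hoxa9, the posterior-group gene known from blood progenitors and leukaemia, lay 1.15 kb away with its far side, since it starts at its higher coordinate. Hoxa7, whose start faces the region, lay 2.94 kb away. The territories of Hoxa3 and Hoxa10 also reached it, so this region alone gave 4 of the 7 genes.

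The third region lay beyond Hoxd3, an anterior-group gene, at chr2:74749263-74749800 (538 bp). Its peaks were 438 bp in WT replicate 1 and 400 bp in WT replicate 2, with 300 bp in common. It lay 0.992 kb past the higher end of Hoxd3, which for this plus-strand gene is the far side from its start, and 13.2 kb before Hoxd1. Only Hoxd3 reached it. Among all 15882 WT-only regions the median reached 1 coding territory, 6.14% reached 3 or more and 1.53% reached 4 or more, so the Hoxa regions, with 3 and 4, were among the more widely shared.

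Peaks of a single WT library made up the remainder. WT replicate 1 alone had a peak of 308 bp inside Hoxa3 (chr6:52211557-52211864), 1.20 kb from its higher end. At Hoxb5, a central-group gene, WT replicate 1 had a peak of 370 bp ending 42 bp before the gene (chr11:96303101-96303470) and another of 240 bp inside it (chr11:96304821-96305060). Hoxb3 and Hoxb6 shared both through their territories. WT replicate 1 also had a 240 bp peak across the lower end of Hoxc10 (chr15:102966576-102966815) and a 240 bp peak inside Hoxc6 (chr15:102999421-102999660), which reached Hoxc11 and Hoxc8, respectively. WT replicate 2 alone had a peak of 242 bp inside Hoxd3 (chr2:74715821-74716062), which reached Hoxd4 and Hoxd8. Hoxb and Hoxc were thus marked in 1 WT library only, and Hoxa and Hoxd in both.

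In total 8 peaks lay in the Hox territories in WT replicate 1, 4 in WT replicate 2 and 0 in each KO library. By cluster, Hoxa had 3 and 2 peaks in WT replicates 1 and 2, Hoxb 2 and 0, Hoxc 2 and 0, and Hoxd 1 and 2. The WT mean was 6.00 ± 2.83 peaks (SD, n = 2) and the KO mean 0 (n = 2). WT and KO libraries did not overlap for all Hox genes together, Hoxa or Hoxd, while for Hoxb and Hoxc WT replicate 2 stood at 0 with the KO libraries. Over the whole genome, 15882 of the 16501 regions found in both WT lists met no KO peak. The gap is thus not particular to Hox genes. A 2-sided exact permutation test over samples gave p = 0.33 for the total, the smallest that 2 against 2 allows. In summed peak width WT had 2770 and 1388 bp and KO 0 and 0 bp (exact permutation p = 0.33).

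**Figure D2:**
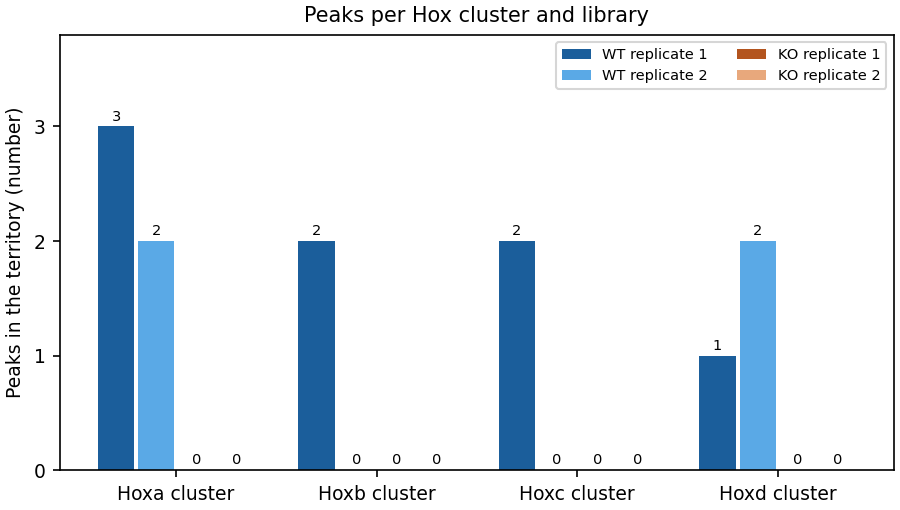
Number of peaks in the territory of each Hox cluster, 1 bar per library with its count above it. Hoxa and Hoxd had peaks in both WT libraries, Hoxb and Hoxc in WT replicate 1 only, and every KO bar is at 0.

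Few KO peaks would fall on a stretch of this length anywhere. At the density of each KO list over the territories of all coding genes, 517 kb would hold 0.151 peaks of KO replicate 1 and 0.108 of KO replicate 2. The nearest KO peak to any cluster lay 511 kb from Hoxd, in KO replicate 2. For Hoxc the nearest lay 2.84 Mb away and for Hoxa 3.41 Mb, both in KO replicate 1, and for Hoxb 0.749 Mb away in KO replicate 2.

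By length, WT replicate 1 had 1.55 peaks per 100 kb in the Hox territories, between its density over the whole annotated span (1.02) and that over all coding territories (1.67). WT replicate 2 had 0.773, close to its density over the span (0.744) and below that over coding territories (1.25). WT-only regions stood at 0.580 per 100 kb, against 0.597 over the span and 1.01 over coding territories. Scaled to 517 kb, the coding density would give 5.21 WT-only regions where 3 were found. These counts are too small to order the clusters, which ran from 1.59 per 100 kb in Hoxa and 0.855 in Hoxd to 0 in Hoxb and Hoxc.

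Hox territories were short and overlapped. Their median length was 23.7 kb, against 37.2 kb for all coding genes, and the median member met the territories of 4 other coding genes, against 1. Among coding genes with a territory no longer than the Hox median, 20.9% had a WT-only region, against 17.9% of the Hox genes of any length. Among the 517 such genes outside the clusters that also met at least 4 other territories, the share was 50.9%. Short coding genes as a whole, with crowded ones and short Hox genes among them, thus had a share like that of Hox genes. Those outside the clusters that were both short and crowded had a higher one. Of the 9 windows of 100 kb that held a Hox gene, 3 (33.3%) had a WT-only region and none had more than 1. A region was found in 25.8% of all such windows, 37.4% of those with a coding gene and 73.2% of those with at least 5 coding genes, and more than 1 in 14.1%, 20.9% and 53.4%. The Hox windows thus lay between all windows and those with a coding gene, and below the gene-dense ones.

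By promoter, 0 of 24 Hox windows met a peak of any library, whereas 26.8% of the 21262 windows of coding genes met a WT-only region. CpG content went with this share over all genes. It was 1.57% in windows with 0 to 4 CpG dinucleotides and 59.1% in those with 30 or more. The Hox windows ran from 4 to 45 CpG with a median of 14.5, close to the median of 13 over all coding windows. Of the 12 Hox windows with at least 15 CpG, 0 met a region, where 49.0% of all such coding windows did. Windows of 1 cluster are neighbours and not independent. Members without a window in the table included Hoxa4, Hoxb2, Hoxb3, Hoxb5, Hoxb6, Hoxb7, Hoxb9, Hoxb13, Hoxc5, Hoxc6, Hoxc8, Hoxc9, Hoxc10, Hoxc11, Hoxc12 and Hoxc13. The peaks at the ends of Hoxa4, Hoxb5 and Hoxc10 therefore lie outside this count.

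**Figure D3:**
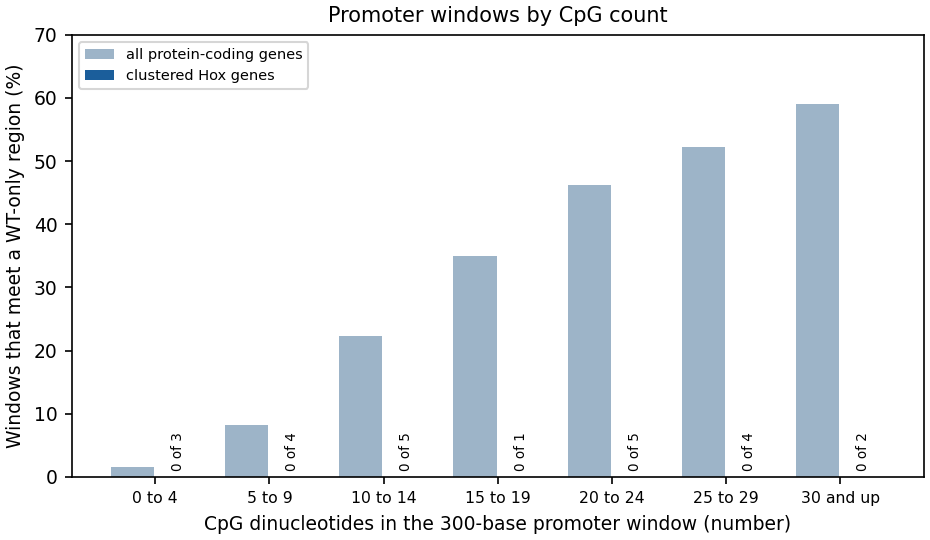
Share of promoter windows (300 bases) that met a WT-only region, by number of CpG dinucleotides in the window; light bars are all protein-coding genes and the labels give Hox windows with a region of Hox windows in the class. The share rises from 1.57% to 59.1% over all genes, and the Hox count is 0 in every class.

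Most Hox peaks were narrower than the median of their list. In WT replicate 1, 7 of 8 lay under the median of 440 bp, those of 438 and 434 bp only slightly. Of the 8, 3 stood at the list's smallest width of 240 bp, a width that 19.0% of the list had. In WT replicate 2, 3 of 4 lay under the median of 438 bp, and 2 stood at the smallest width of 242 bp (19.4% of the list). The widest were the peaks at Hoxa4, 500 and 504 bp, which were wider than 57.3% and 58.9% of their lists. Of the 16501 regions found in both WT lists, 43.0% had a smaller summed peak width than the Hoxa4 region, 28.7% than the Hoxd3 region and 13.7% than the Hoxa7 to Hoxa9 region. Without a score, width is the one measure of peak size in these lists.

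**Figure D4:**
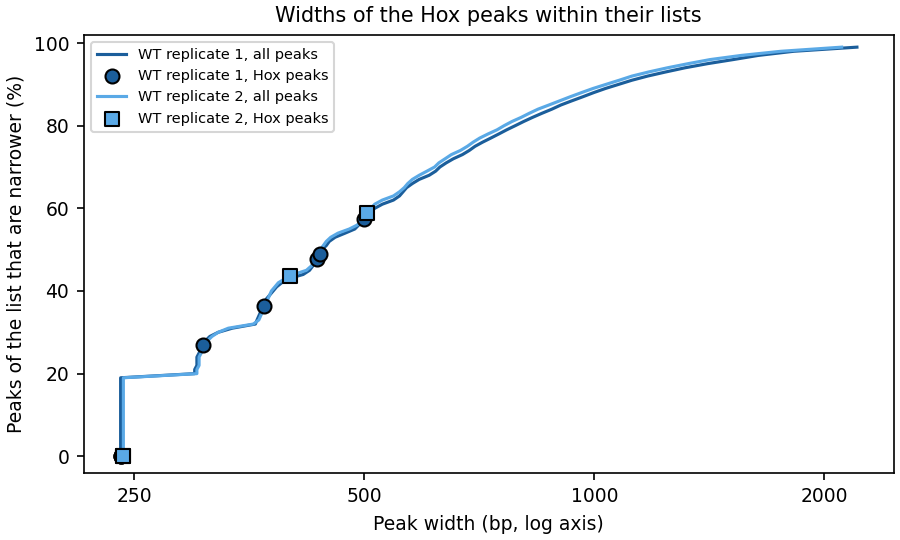
Share of each WT list that is narrower than a given width, against width on a log axis; lines are all peaks, points are the Hox peaks. The points lie between the smallest width, where 5 Hox peaks overlap, and 504 bp, in the lower and middle part of both lists.

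Replication at the Hox genes was partial. Of the 8 peaks of WT replicate 1, 3 met a peak of WT replicate 2, where 61.5% of that whole list did. In the other direction it was 3 of 4, where 85.8% of the list did. Per gene, 15 members had a peak in WT replicate 1, against 53.5% of all coding genes, and 9 in WT replicate 2, against 48.5%. A peak of either WT list reached 17 members, 43.6%, against 55.8% of all coding genes. The choice of library thus moved the Hox count more than that of all genes.

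By paralogue group, the members were counted beside the 44.3% of all coding genes with a WT-only region and the 55.8% with a peak of either WT list. Neighbours share regions, so these gene counts repeat the same 3 regions and give no order of the classes. Of the 8 anterior genes (groups 1 to 3), 2 had a WT-only region, Hoxa3 and Hoxd3, and 3 had a peak of either WT list in reach. Of the 15 central genes (groups 4 to 8), 3 had a WT-only region, and 10 had a peak of either WT list in reach. Of the 16 posterior genes (groups 9 to 13), Hoxa9 and Hoxa10 had a WT-only region, and Hoxc10 and Hoxc11 had a peak of WT replicate 1. All 3 genes of group 6, Hoxa6, Hoxb6 and Hoxc6, had a peak of WT replicate 1 in reach and none had a WT-only region. Groups 1, 2, 12 and 13 had no peak of any library. They include Hoxb1, Hoxd1, Hoxa2 and Hoxb2, genes of the anterior end, and Hoxc12, Hoxd12, Hoxa13, Hoxb13, Hoxc13 and Hoxd13, known from limb, skin and urogenital development. In the groups between, no peak of any library reached Hoxa11, Hoxb4, Hoxb7, Hoxb8, Hoxb9, Hoxc4, Hoxc5, Hoxc9, Hoxd9, Hoxd10 or Hoxd11. Hoxb4, a regulator of blood stem cell growth, was among them.

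The stretches between neighbouring WT-only regions that held Hox genes ran from 29.3 to 720 kb. A long stretch is more likely than a short one to hold a given gene. The percentages below therefore do not show that the Hox stretches were unusual. The Hoxc genes, all 9, lay in 1 stretch of 425 kb (chr15:102743999-103168948), and 6.94% of all 15856 such stretches were at least that long. All 10 Hoxb genes lay in a stretch of 376 kb (chr11:96065589-96441357; 7.67%). In Hoxd, the 8 genes from Hoxd13 to Hoxd3 lay in one of 170 kb (chr2:74579297-74749262; 15.1%), and Hoxd1 in one of 76.0 kb (chr2:74749801-74825781; 28.4%). In Hoxa, Hoxa2 lay in a stretch of 720 kb below the Hoxa4 region (4.57%), and Hoxa9 to Hoxa13 in one of 373 kb above (7.76%). Between the Hoxa regions the stretch was 29.3 kb, and 48.6% of all were at least that long.

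The coding genes on both sides of the clusters were also counted. Of the 24 flanking genes, the 3 nearest on each side of each cluster, 16 had a WT-only region and 0 had a KO peak. Over all coding genes 44.3% had a WT-only region and 2.42% a peak of either KO list. Around Hoxa these were Cbx3, Hibadh and Tax1bp1. Around Hoxb they were Atp5g1, Skap1 and Cbx1, and around Hoxc they were Atp5g2, Atf7, Smug1, Cbx5 and Hnrnpa1. Around Hoxd they were Lnpk, Atp5g3, Mtx2, Gm50595 and Hnrnpa3. Cbx5 and Hnrnpa1 shared a region. The flanking genes lay 6.71 to 894 kb from their cluster. Of the nearest gene on each side, Skap1, Smug1 and Mtx2 had a WT-only region, while Skap2, Evx1, Ttll6, Calcoco1 and Evx2 had none. At Mtx2, the first gene above Hoxd at 60.7 kb, the region spanned 74825782 to 74826292, with a peak of 510 bp in WT replicate 1 and one of 434 bp in WT replicate 2. At Cbx3, which encodes a heterochromatin protein, the peaks were 2528 and 2562 bp, wider than any Hox peak. Skap1, an adaptor gene of T cell receptor signalling above Hoxb, held 4 regions. Skap2, Snx10, Evx1 and Snx11 had peaks without a WT-only region, 2 in WT replicate 2 at Skap2, 2 in each WT library at Snx10, 1 in WT replicate 2 at Evx1 and 1 in WT replicate 1 at Snx11. Evx2, a homeobox gene 6.71 kb from Hoxd13, had none in any library, like Ttll6, Calcoco1 and Calcoco2. Flanking genes differ from Hox genes in length and use, and no test compared them.

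Genes that act with or on Hox genes were counted in the same way. Of 9 TALE homeobox genes, whose proteins bind DNA together with Hox proteins, 4 had a WT-only region (44.4%, against 44.3% of all coding genes), namely Pbx2 with 4 regions and Pknox1, Pbx3 and Meis3 with 1 each. Meis1, the partner of Hoxa9 in progenitors, had no peak. In the Polycomb list it was 23 of 30, among them Ezh2, the histone methyltransferase of the complex, with 2, Rybp with 3, Aebp2 with 4 and Jarid2 with 5. The trithorax and MLL list had 16 of 18, with Aff1 at 9, Mllt3 at 6, and Ash1l and the demethylase gene Kdm6b at 2 each. KO libraries had a peak at 3 of the 30 Polycomb and 4 of the 18 trithorax genes, against 2.42% of all coding genes. Of 55 homeobox genes outside the clusters, 4 had a WT-only region, Gsx2, Msx3, Lhx1 and Nkx3-2, with 1 each. The lists differ in territory length, with medians of 49.9 kb for Polycomb, 61.4 kb for trithorax, 159 kb for TALE and 25.9 kb for the other homeobox genes, against 23.7 kb for the Hox genes. The part of length in these counts was not tested.

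**Figure D5:**
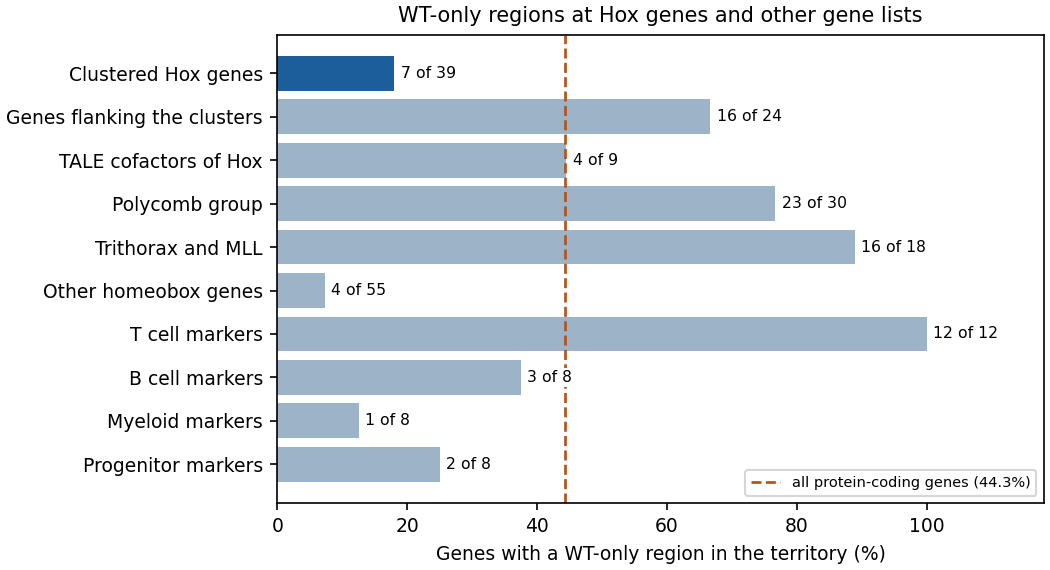
Percent of genes whose territory holds a WT-only region, for the clustered Hox genes (dark bar) and other lists, with counts beside the bars; the dashed line is the share of all protein-coding genes. Hox genes (7 of 39, 17.9%) lie below the line at 44.3%. So do the other homeobox genes (4 of 55, 7.27%) and the B cell, myeloid and progenitor markers. Polycomb, trithorax, T cell and flanking genes lie above it.

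Marker genes of cell types were set beside the same 44.3% of all coding genes, although peaks show binding and not which cells were present. All 12 T cell genes had a WT-only region, with Bcl11b at 16, Tcf7 at 5, Cd3g at 4 and Cd3d at 3. Of 8 B cell genes 3 had one (Cd79a with 5, Pax5 and Vpreb3 with 1 each), of 8 myeloid genes only Fcgr1, and of 8 blood progenitor genes Flt3 and Hlf. Progenitor genes, with which Hoxa9 and Meis1 are used in marrow, thus had a WT-only region in 2 of 8 cases. A KO peak was found at 1 T cell gene, Cd247, and at none of the other 3 marker lists, against 2.42% of all coding genes. How far T cell purity bears on the Hox peaks was not tested.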

How the data were processed

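Smad4 ChIP-seq was made in 8 samples, of which the 4 ChIP samples (2 WT, 2 KO) had peak lists; the 4 input samples were not analysed here. The deposited lists give chromosome, start and end per peak and sample, with no other value. Per the submitters' processing notes, mm10, Bowtie, HOMER 4.8.3 and Trim Galore were used, with their roles, the depth, the thresholds and the use of input not given in the sources used here. Starts were converted to 1-based positions. Protein-coding genes of the RefSeq table (GRCm38.p6) were used, leaving out genes placed before 3 Mb (chromosome Y excepted), where scaffold coordinates appear. Peaks meeting by 1 bp were merged.

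The table has no strand; strand and starts came from the promoter windows, matched for 22 of 39 members. Counts were compared with those over all coding genes. WT and KO peak numbers were compared by a 2-sided exact permutation test. The overlap code was tested on simulated data. Members, lists and alternatives were chosen with earlier results of these data known. Named genes were all members with a peak, flanking genes with a peak, and up to 4 genes per other list with the widest WT-only region; other names were chosen after their values were seen. A single member is counted in the totals but not reported here by name. Python 3.11.15, numpy 2.4.6, pandas 2.3.3, SciPy 1.17.1 and matplotlib 3.10.9 were used.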

Additional observations from a re-analysis of the deposited data

How the results depend on the processing

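The count of 7 Hox genes and 3 regions depended on how a region was defined. With peak centres within 100 bp it was 4 genes and 1 region, with the gene body only 2 genes and 1 region, and with the wider part of each list 3 genes and 1 region. Counting a region of either WT list gave 17 genes and 9 regions. Assignment to the nearest coding gene gave 4 genes, a count without a share over all coding genes, so it cannot be called high or low. A region centre within 1 kb of a gene end gave 1 gene, against 27.8% of all coding genes. The next 2 settings were chosen after seeing the data. A start within 1 kb of a region gave 0 of the 22 members with a window, against 30.3% of coding genes with one. Hoxa4, whose higher end lies in the first region, has no window and could not be counted there. Leaving out peaks at the smallest width gave 4 genes. Leaving out each list gave 7 to 15 genes and 3 to 8 regions, the highest without WT replicate 2. In all 14 alternatives that count territories, the Hox share was below that of all coding genes, by 12.0 to 30.4 percentage points.

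The difference between WT and KO ran from 3.50 peaks with the gene body only to 8 without WT replicate 2; since both KO lists held 0 Hox peaks, its direction could not turn. With the replicate block, which pairs WT and KO lists of the same number, it was 6 peaks (exact sign-flip permutation p = 0.5, the smallest that 2 pairs allow), with 7 genes and 3 regions; the labels do not say that equal numbers share an animal or day. Peak lists without scores or depth limit all counts to presence or absence of a call.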

Other observations

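Of the 27 lncRNA genes of the table in the Hox territories, 5 overlapped a WT peak and 0 a KO peak. Shares over all lncRNA and miRNA genes were not counted, so the counts given here cannot be called high or low. LOC115490409 overlapped the Hoxa4 region in both WT libraries, and Haglr, which lies between Hoxd3 and Hoxd1, overlapped the Hoxd3 region in both. Hoxb5os overlapped the 2 peaks of WT replicate 1 at Hoxb5, Hoxaas3 the peak of WT replicate 1 inside Hoxa3, and Hoxd3os1 the peak of WT replicate 2 inside Hoxd3. Where a peak lies at both a Hox gene and an lncRNA gene, its position does not say to which of them the binding belongs. Hotair, Hottip and Hotairm1, lncRNA genes known for roles in Hox regulation, overlapped no peak. The 6 miRNA genes of the clusters, Mir10a, Mir10b, Mir196a-1, Mir196a-2, Mir196b and Mir615, overlapped none either.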
